A study of Mus musculus with 6 samples.

Results

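The genes described here are Nr1i2, which encodes the pregnane X receptor (PXR), and the Cyp3a genes of the mouse liver. They were chosen by name, as the gene rows with the symbols Nr1i2, Cyp3a11, Cyp3a13, Cyp3a16, Cyp3a25, Cyp3a41a, Cyp3a41b, Cyp3a44 and Cyp3a59, and all 9 were found among the 18444 genes listed in at least 1 library. The files held 1 more Cyp3a row, Cyp3a57, which is given beside them.

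Liver RNA of male C57BL/6 mice (C57BL/6J in the methods) was sequenced as 6 libraries, 1 per group. The mice are labelled as 6 to 8 weeks old, the age the methods give for the mice used. That is shorter than the 16 weeks of feeding, so it was not the age at which the diet livers were taken. Age at sampling was not stated. In the diet model the groups were SD (the library labelled as chow diet control), HFD (high-fat diet) and HFD plus JT003, with 16 weeks of feeding and 4 weeks of JT003 per the methods of the study. In the CCl4 model the groups were corn oil, CCl4 in corn oil and CCl4 plus JT003, with injections every 3 days for 6 weeks and JT003 for 3 weeks. JT003 is a peptide made as an agonist of both adiponectin receptors. The comparisons ask how these genes differed between libraries with and without each injury or the peptide. The HFD libraries carry the label NASH, or post-treatment NASH with JT003, and for NASH mice the methods add a diet lacking methionine and choline to the high-fat diet, but the study names the sequenced diet groups as SD, HFD and HFD plus JT003 and treats the deficient diet as a separate model. JT003 was injected daily, and all mice were fasted before they were killed. Whether a library held RNA of 1 mouse or of several was not stated. Rounded counts summed to 20184578 in SD, 19724526 in HFD, 19849163 in HFD plus JT003, 19409782 in corn oil, 20156865 in CCl4 alone and 19374255 in CCl4 plus JT003. With 1 library per group no difference has a replicate check, and each test compares 2 libraries, not 2 conditions.

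PXR is a nuclear receptor of hepatocytes and gut epithelium that binds drugs, steroids and bile acids. With its partner RXR it binds paired copies of a short DNA sequence and switches on genes of drug and bile acid removal, among which Cyp3a genes are the classic targets. Cyp3a enzymes are cytochromes P450 of the endoplasmic reticulum that oxidise drugs and steroids with electrons passed on by P450 reductase. In mice Cyp3a11 is the main liver enzyme of adult males, while Cyp3a41 and Cyp3a44 are known as female-biased and Cyp3a16 as a fetal and neonatal form.

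Levels between genes are given as FPKM, which is scaled to transcript length and library size. Differences between libraries are log2 ratios of scaled counts with a 95% interval that covers counting error only. A gene was called when the exact binomial test gave an adjusted p under 0.001 over all genes tested and the log2 ratio was at least 1 in size.

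Nr1i2, the receptor, was at 35.89 FPKM in SD, 27.70 in HFD, 40.37 in HFD plus JT003, 38.21 in corn oil, 47.16 in CCl4 alone and 51.72 in CCl4 plus JT003. It was lowest in HFD and highest in CCl4 plus JT003, a span of 1.87 times. In CPM (counts scaled to library size), HFD stood at 69.4 (95% interval 65.8 to 73.1), apart from SD at 98.0 (93.6 to 103). SD and HFD plus JT003 overlapped, as did corn oil with CCl4 and CCl4 with CCl4 plus JT003.

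HFD over SD gave Nr1i2 a log2 ratio of -0.50 (-0.60 to -0.40), and adding JT003 to HFD gave 0.53 (0.43 to 0.63) over HFD. Both ratios lay outside counting error and short of the fold threshold, so Nr1i2 was not called. In the CCl4 model the ratio was 0.07 (-0.02 to 0.16) between CCl4 and its corn oil control, and 0.06 (-0.02 to 0.14) when JT003 was added to CCl4. These 2 intervals include 0 with TMM scaling of the libraries. Scaling by total reads gave 0.30 and 0.13, beside medians of all genes of 0.23 and 0.06, and the pooled CCl4 column of the authors, which holds more reads than the CCl4 library, gave -0.02 and 0.14, so the direction over corn oil depended on the setting. In bulk liver, fewer cells of a type and less RNA per cell cannot be told apart, here and for every gene below.

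Cyp3a11, the main drug-oxidising Cyp3a enzyme of male mouse liver, was at 214.71 FPKM in SD, 298.10 in HFD, 349.25 in HFD plus JT003, 1599.53 in corn oil, 3389.00 in CCl4 alone and 3683.92 in CCl4 plus JT003. The 3 libraries of the CCl4 model were all above the 3 of the diet model, controls included. By FPKM, Cyp3a11 ranked 334 among genes in SD, 50 in corn oil and 21 in both CCl4 and CCl4 plus JT003. Its reads made up 0.0442% of the SD library and 0.759% of the CCl4 plus JT003 library.

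Cyp3a25, a neighbouring liver enzyme of the same cluster, was at 57.64 FPKM in SD, 131.73 in HFD, 246.07 in HFD plus JT003, 370.76 in corn oil, 298.18 in CCl4 alone and 428.94 in CCl4 plus JT003. It was lowest in SD, and here too the 3 libraries of the CCl4 model were above those of the diet model. Cyp3a59, its close paralog, was at 1.80 FPKM in SD, 5.27 in HFD, 8.59 in HFD plus JT003, 20.50 in corn oil, 38.32 in CCl4 alone and 34.47 in CCl4 plus JT003. It had the same lowest library and spanned 21.3 times from lowest to highest.

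Cyp3a13, which lies apart from the other Cyp3a genes on the same chromosome and is known from gut as well as liver, was at 58.92 FPKM in SD, 65.35 in HFD, 63.43 in HFD plus JT003, 59.01 in corn oil, 53.76 in CCl4 alone and 123.56 in CCl4 plus JT003. A single library, CCl4 plus JT003, stood above the rest. In CPM, SD, HFD, HFD plus JT003 and corn oil had overlapping neighbours in the order, between 184 and 201, with CCl4 below them at 152 (147 to 158).

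**Figure D1:**
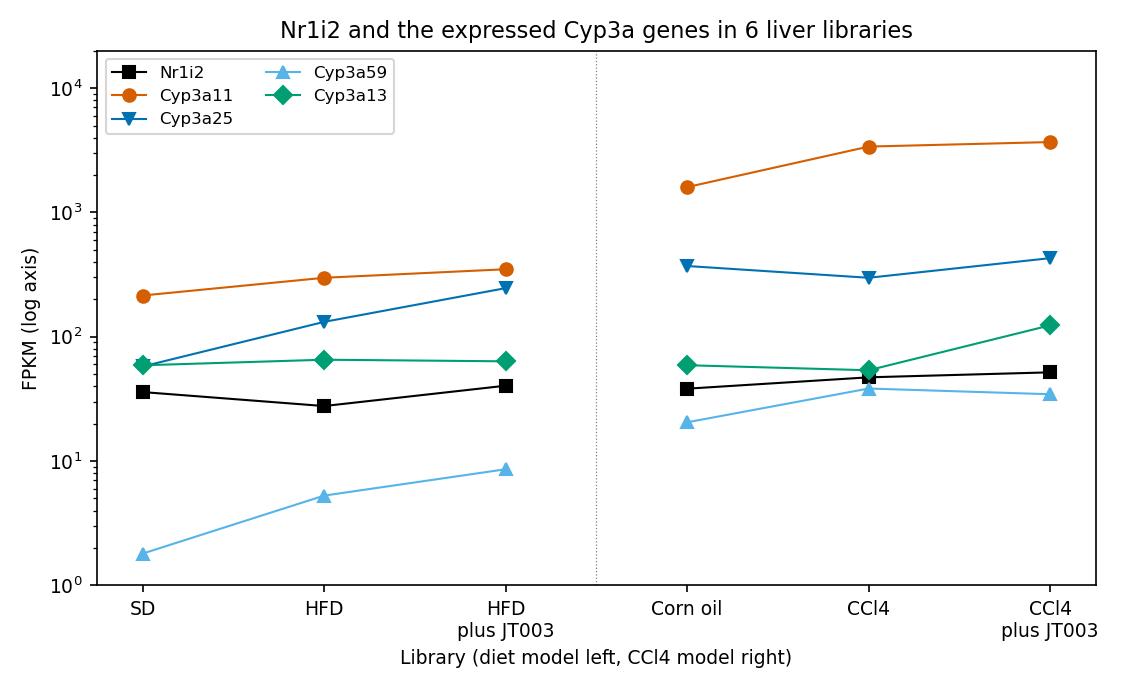
FPKM (log axis) of Nr1i2 and of 4 Cyp3a genes in each of the 6 libraries, 1 point per library, with lines joining the libraries of a model. Cyp3a11 runs from 214.71 in SD to 3683.92 in CCl4 plus JT003, while Nr1i2 stays between 27.70 and 51.72.

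The female-biased and neonatal forms were near 0. Cyp3a16 had 4 rounded counts over the 6 libraries and at most 2 in any of them, Cyp3a41a had 9 and Cyp3a57 had 15. Cyp3a41b had 11 counts, all in CCl4 plus JT003. Cyp3a44 had 29 counts in CCl4, 7 in CCl4 plus JT003, 2 in HFD and 0 in SD, HFD plus JT003 and corn oil. A count of 0 in corn oil allows up to the floor of 3 counts.

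Near-identical paralogs make some of these values uncertain, since reads that match several of them were divided by estimation. Of the windows of 50 bases in the Cyp3a41a transcript, 93.7% were also found in Cyp3a41b, so counts of these genes cannot be told apart. Cyp3a59 shared 24.7% of its windows with Cyp3a25. Cyp3a11 shared 14.8% with other Cyp3a transcripts, at most 6.32% with a single gene (Cyp3a41a) and none with Cyp3a25 or Cyp3a59. Cyp3a13 shared 0 of its 2907 windows and is the Cyp3a gene counted without such overlap.

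The make-up of the family differed between libraries. Cyp3a11 held 64.4% of the summed Cyp3a FPKM in SD, 59.6% in HFD alone and 52.3% in HFD plus JT003. The share of Cyp3a25 over the same libraries was 17.3%, 26.3% and 36.9%. In corn oil Cyp3a11 held 78.0%, in CCl4 it held 89.7%, and with JT003 added 86.2%. Summed Cyp3a FPKM was 333.24 in SD, 500.56 in HFD, 667.43 in HFD plus JT003, 2050.10 in corn oil, 3780.18 in CCl4 alone and 4271.34 in CCl4 plus JT003.

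**Figure D2:**
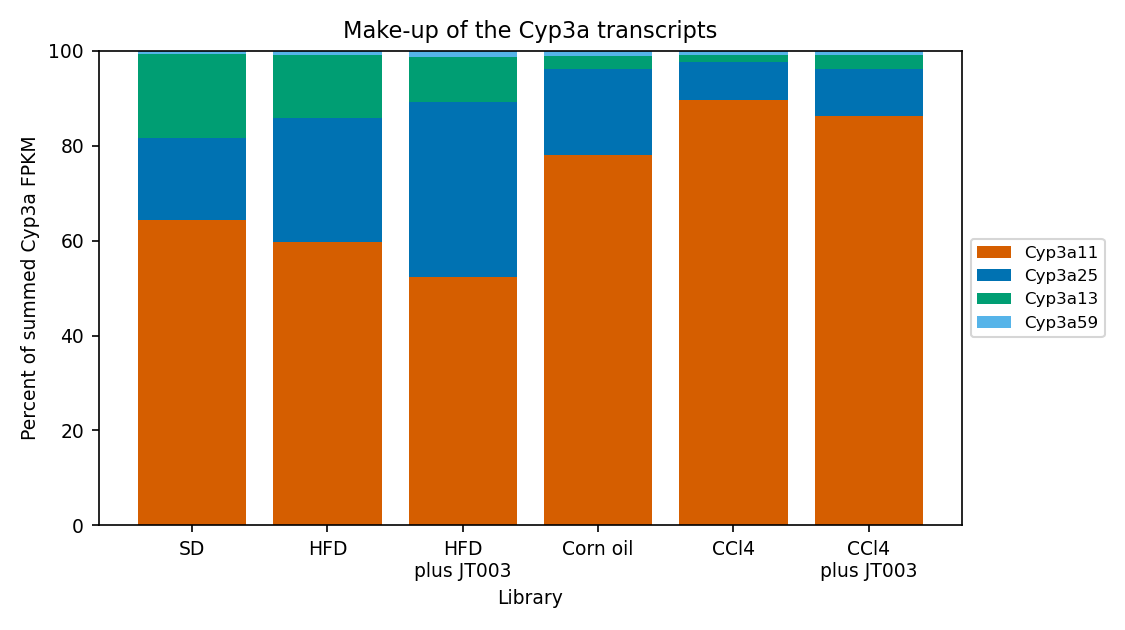
Percent of the summed Cyp3a FPKM held by 4 Cyp3a genes in each library, as stacked bars from 0 to 100. Cyp3a25 holds 36.9% in HFD plus JT003 and 7.89% in CCl4.

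The first comparison sets the HFD library beside the SD library. Of the 8 members tested, 2 were called higher in HFD than in SD and 0 lower, where 2.92% of all 16973 genes tested were called higher and 2.47% lower. Cyp3a25 rose with a log2 ratio of 1.08 (1.01 to 1.15) and Cyp3a59 with 1.40 (1.03 to 1.82). Cyp3a11 was at 0.35 (0.31 to 0.39) and Cyp3a13 at 0.03 (-0.04 to 0.09). The called genes rose while Nr1i2 had a negative ratio in the same pair. Well counted genes are called more readily: 10.7% were called among those whose higher library had 1000 counts or more. For such genes the share was 2.29% for HFD plus JT003 over HFD and 11.8% for HFD plus JT003 over SD. It was 7.57% for CCl4 over corn oil, 4.62% for CCl4 plus JT003 over CCl4 and 5.75% for CCl4 plus JT003 over corn oil. For corn oil over SD it was 5.87%. With scaling by total reads the median of all genes in HFD over SD moved to 0.12 and both of its calls held. Both were lost when a biological variation of 0.2 was assumed. They were also lost when the counts of Cyp3a11, Cyp3a25 and Cyp3a59 were summed, which gave 0.54. Cyp3a11, at 0.35 alone, holds most of that sum and shared 0 windows with Cyp3a25 or Cyp3a59. The loss in the sum therefore does not test reads divided between paralogs.

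The next comparison sets the HFD plus JT003 library beside the HFD library. None of the 6 members tested was called in HFD plus JT003 over HFD, where 0.743% of all genes were called higher and 0.883% lower. The ratio of Cyp3a25 was 0.88 (0.84 to 0.93), that of Cyp3a59 0.69 (0.44 to 0.95) and that of Cyp3a11 0.21 (0.18 to 0.25). These 3 intervals lay above 0, short of the fold threshold. Cyp3a13 was at -0.06 (-0.12 to 0.01).

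For HFD plus JT003 over SD, 2 of 7 members tested were called higher and 0 lower, where 3.16% of all genes were called higher and 2.76% lower. Cyp3a25 had a log2 ratio of 1.96 (1.90 to 2.03) and Cyp3a59 of 2.09 (1.75 to 2.5). Both calls were lost with an assumed variation of 0.4. They were also lost when the counts of Cyp3a11, Cyp3a25 and Cyp3a59 were summed, which gave 0.99. Cyp3a11, at 0.56 alone, holds most of that sum and shared 0 windows with Cyp3a25 or Cyp3a59. Here too the sum does not test reads divided between paralogs. HFD plus JT003 over SD shares its libraries with both comparisons before it. Cyp3a13 was at -0.03 (-0.10 to 0.03), which turned to 0.11 with scaling by total reads, where the median of all genes was 0.13. Nr1i2 was at 0.03 (-0.06 to 0.12), so the receptor was near its SD level in the library where Cyp3a25 was 3.90 times its SD level.

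In the CCl4 model, CCl4 over corn oil called 1 of 8 members tested higher and 0 lower, where 4.76% of all genes were called higher and 2.41% lower. The called gene was Cyp3a44, 7.92-fold higher when corn oil was set to the floor of 3 counts. The lower 95% limit of its log2 ratio was 2.59, which is a smaller fold, and its 29 counts are few. The call was lost with an assumed variation of 0.4 and with log2(FPKM + 1), at 0.80. Cyp3a11 had a log2 ratio of 0.85 (0.83 to 0.86), short of the threshold, and passed it at 1.08 when libraries were scaled by total reads, which also moved the median of all genes to 0.23. Cyp3a59 was at 0.66 (0.54 to 0.79). Cyp3a25 was at -0.54 (-0.57 to -0.50) and Cyp3a13 at -0.37 (-0.44 to -0.30), with the same signs under scaling by total reads. With the pooled CCl4 column, Cyp3a11 was at 0.64, Cyp3a59 at 0.39, Cyp3a13 at -0.02 and Cyp3a25 at -0.74. In the reads of that column beyond the CCl4 library, Cyp3a11 was at 0.56 over corn oil, Cyp3a59 at 0.26, Cyp3a25 at -0.82 and Cyp3a13 at 0.15, so the direction of Cyp3a13 was not the same in all CCl4 reads. Cyp3a25 was at 0.67 when its counts were summed with those of Cyp3a11 and Cyp3a59, a sum that Cyp3a11 dominates.

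For CCl4 plus JT003 over CCl4, 1 of 9 members tested was called higher and 0 lower, where 1.91% of all genes were called higher and 2.5% lower. Cyp3a13 rose with a log2 ratio of 1.13 (1.07 to 1.19). Against the pooled CCl4 column it was 0.78 and not called. The call was also lost with an assumed biological variation of 0.2. Cyp3a11 was at 0.05 (0.04 to 0.06), Cyp3a25 at 0.45 (0.41 to 0.48) and Cyp3a59 at -0.22 (-0.33 to -0.11). Cyp3a59 turned to 0.05 against the pooled CCl4 column. It was at 0.09 with counts summed over Cyp3a11, Cyp3a25 and Cyp3a59, a sum that Cyp3a11 dominates. Cyp3a44 was at -1.79 (-3.50 to -0.84), not called, but was called at -2.08 against the pooled CCl4 column, and at -1.79 among genes with at least 10 counts. Cyp3a41b had 11 counts against 0 in CCl4 and was not called, and its counts cannot be told apart from those of Cyp3a41a, at 0 and 3. With its counts summed with those of Cyp3a41a, Cyp3a44 and Cyp3a16 the ratio was -0.86. Against the pooled CCl4 column, which holds 0 counts of Cyp3a41b, it was called.

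For CCl4 plus JT003 over corn oil, 0 of 9 members tested were called, where 3.22% of all genes were called higher and 1.72% lower. Cyp3a11 was at 0.90 (0.89 to 0.91) and Cyp3a13 at 0.76 (0.70 to 0.82). Both passed the threshold with scaling by total reads, at 1.20 and 1.06, where the median of all genes was 0.32. Cyp3a25 was at -0.09 (-0.12 to -0.06), which turned to 0.21 with that scaling. Cyp3a59 was at 0.44 (0.32 to 0.57) and Nr1i2 at 0.13 (0.04 to 0.22). Cyp3a44 had 7 counts against 0 in corn oil and Cyp3a41b 11 against 0, neither called.

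The last comparison sets the control libraries of the models side by side. In corn oil over SD, 3 of 7 members tested were called higher and 0 lower, where 2.18% of all genes were called higher and 3.24% lower. Cyp3a11 had a log2 ratio of 2.99 (2.96 to 3.03), Cyp3a25 of 2.77 (2.71 to 2.84) and Cyp3a59 of 3.57 (3.26 to 3.97). The 3 calls held with an assumed variation of 0.2 and were lost with 0.4. The summed counts of these 3 genes gave 2.96, still called, in a sum that Cyp3a11 dominates. Nr1i2 was at 0.19 (0.09 to 0.28) and Cyp3a13 at 0.10 (0.03 to 0.17). For Cyp3a11, Cyp3a25 and Cyp3a59 these ratios were above those of every comparison within a model, while Cyp3a13 had its highest ratio in CCl4 plus JT003 over CCl4. The control libraries come from different models, with 16 weeks of feeding and 6 weeks of injections, so age at sampling may differ too. Diet, injection, age and any other difference between the models cannot be told apart.

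**Figure D3:**
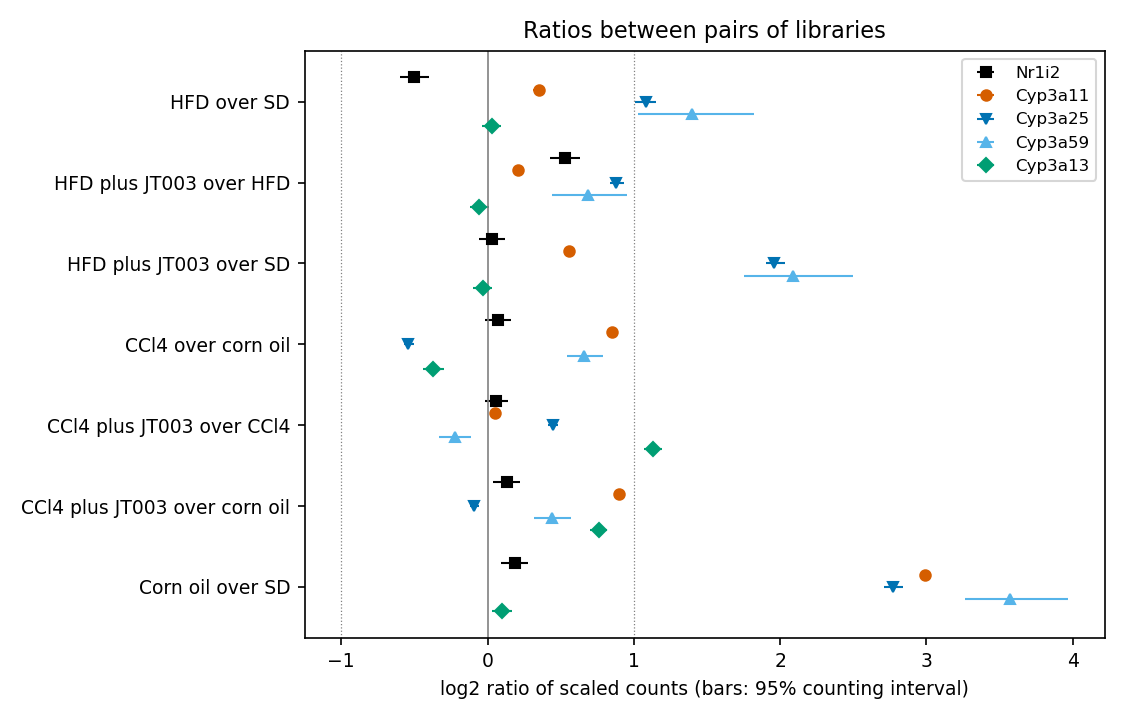
Log2 ratio of scaled counts for Nr1i2 and 4 Cyp3a genes in each of the 7 comparisons between 2 libraries, with bars for the 95% counting interval and dotted lines at -1 and 1. The ratios of Cyp3a11, Cyp3a25 and Cyp3a59 for corn oil over SD lie between 2.77 and 3.57.

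Over the 6 libraries, log2(FPKM + 1) of Cyp3a59 had a Pearson r of 0.96 with Cyp3a11 and of 0.93 with Cyp3a25, as a description over libraries that include the model difference. Cyp3a13 had an r of 0.39 with Cyp3a11. Nr1i2 had an r of 0.78 with Cyp3a11. Among 10680 genes with a mean FPKM of at least 1, those most like Nr1i2 were Toe1 (r = 0.989), Lrwd1 (0.986), 1700047I17Rik2 (0.984), Snora61 (0.977) and Gm20605 (0.975), over n = 6 libraries. Those most like Cyp3a11 were Tm2d2 (0.999), Ndufa9 (0.998), Cc2d1b (0.995), Abhd17a (0.994) and Polr2j (0.993), whose own levels moved far less. Tm2d2 ran from 29.28 FPKM in SD to 45.02 in CCl4.

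The promoters are shown because Cyp3a11, Cyp3a25 and Cyp3a59 were high and low in the same models while Cyp3a13 was not. They are the 250 bases before the transcript start from RefSeq (GRCm38.p6), and all 9 members and Cyp3a57 matched by symbol. Capitals mark the hexamers AGTTCA and AGGTCA, the units that nuclear receptors of this kind bind in pairs, on either strand.
Cyp3a11, chr5:145879855-145880104, minus strand: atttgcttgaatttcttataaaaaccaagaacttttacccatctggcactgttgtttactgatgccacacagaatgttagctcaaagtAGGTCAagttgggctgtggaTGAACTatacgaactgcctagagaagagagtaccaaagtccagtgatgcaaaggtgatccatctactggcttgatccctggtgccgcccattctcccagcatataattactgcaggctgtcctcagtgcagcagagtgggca
Cyp3a25, chr5:146009619-146009868, minus strand: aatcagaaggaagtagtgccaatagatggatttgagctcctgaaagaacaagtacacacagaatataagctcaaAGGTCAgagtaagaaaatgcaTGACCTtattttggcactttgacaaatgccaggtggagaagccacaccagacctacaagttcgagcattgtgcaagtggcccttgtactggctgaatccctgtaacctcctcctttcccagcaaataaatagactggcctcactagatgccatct
Cyp3a59, chr5:146079008-146079257, plus strand: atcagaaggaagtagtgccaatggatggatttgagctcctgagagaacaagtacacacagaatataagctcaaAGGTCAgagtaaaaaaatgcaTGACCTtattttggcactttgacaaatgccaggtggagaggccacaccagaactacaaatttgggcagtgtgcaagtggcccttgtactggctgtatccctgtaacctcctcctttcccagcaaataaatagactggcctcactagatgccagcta
Cyp3a13, chr5:137921620-137921869, minus strand: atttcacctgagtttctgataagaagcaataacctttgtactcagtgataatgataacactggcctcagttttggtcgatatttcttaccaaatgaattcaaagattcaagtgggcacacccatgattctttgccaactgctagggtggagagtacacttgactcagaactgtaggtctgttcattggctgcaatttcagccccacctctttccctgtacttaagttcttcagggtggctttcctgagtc

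The promoters of Cyp3a25 and Cyp3a59 were identical at 94.8% of their alignment, and each held AGGTCA 2 times. Cyp3a11 held AGTTCA 1 time and AGGTCA 1 time, and its promoter was 55.6% identical to that of Cyp3a25, 56.3% to that of Cyp3a59 and 57.2% to that of Cyp3a13, but 76.6% to that of Cyp3a16, 72.9% to that of Cyp3a41a, 72.8% to that of Cyp3a41b and 72.5% to that of Cyp3a44, all genes near 0. Of the genes near 0, Cyp3a57 also held AGGTCA 2 times, with a promoter 88.9% identical to that of Cyp3a25. Cyp3a44 held AGGTCA 1 time, and Cyp3a41a and Cyp3a41b held AGTTCA 1 time each. Cyp3a13, Nr1i2 and Cyp3a16 held 0 of either, so genes near 0 were found with and without the hexamers. Of 32536 promoters of this length, 11.8% held AGTTCA, 14.0% AGGTCA and 24.2% at least 1 of them. Pairs of these hexamers in the same direction with 3 or 4 bases between them, or facing away from each other with 6, were in 0 of the 10 promoters and in 4, 8 and 3 of the 32536. A match is a description of letters in this window.

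For the gene lists that follow, the shares of all genes called in each comparison are those given above. Among 16 receptor partners and coregulators of PXR, 1 was called higher in HFD plus JT003 over HFD and 0 lower. The list median was 0.23 beside -0.01 for all genes. The called gene was Nr1i3, the constitutive androstane receptor that shares targets with PXR. Nr1i3 was at 55.62 FPKM in SD, 77.25 in HFD, 192.95 in HFD plus JT003, 96.00 in corn oil, 65.26 in CCl4 alone and 124.42 in CCl4 plus JT003. It was highest in HFD plus JT003, with a log2 ratio of 1.31 (1.24 to 1.38) over HFD. Over SD the ratio of Nr1i3 was 1.66 (1.58 to 1.74), also called. Vdr was at 0 in HFD and in CCl4 plus JT003. Nr0b2, a corepressor, rose in corn oil over SD by a log2 ratio of 1.40 (1.20 to 1.61). None of the 16 was called in HFD over SD, CCl4 over corn oil, CCl4 plus JT003 over CCl4 or CCl4 plus JT003 over corn oil. Cebpa, with the highest mean FPKM of them over the 6 libraries, was at 128.13 FPKM in CCl4 and between 168.33 and 186.54 elsewhere.

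Of 17 PXR target genes outside Cyp3a, 8 were called higher in CCl4 over corn oil and 0 lower, with a median of 0.86 beside 0.00 for all genes. In CCl4 plus JT003 over CCl4 none was called higher and 6 were called lower, with a median of -0.60, while Cyp3a11 stayed near its CCl4 level. Over corn oil, 6 were called higher in CCl4 plus JT003 and 0 lower, with a median of 0.44. Cyp2b10, a phenobarbital-responsive P450, was at 0.11 FPKM in corn oil, 11.11 in CCl4 alone and 2.95 in CCl4 plus JT003. Gstm3, a glutathione transferase, was at 13.13, 497.05 and 98.09 FPKM in these libraries. Gsta1, of the same enzyme class, was at 3.88, 107.29 and 21.73 FPKM. These genes were lower in CCl4 plus JT003 than in CCl4, while Cyp3a11 was not. Gstm1, with the highest mean FPKM of the list over the 6 libraries, was at 1027.71 FPKM in corn oil, 3544.14 in CCl4 alone and 1716.04 in CCl4 plus JT003. Nr1i3 shares targets with PXR, and the part of either receptor in the values of this list was not tested.

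In the diet model, 5 of the 17 targets were called higher in HFD over SD and 0 lower, with a median of 0.77, or 0.36 with genes at 0 set to their floor. In HFD plus JT003 over HFD, 2 were called higher and 0 lower, with a median of 0.22 beside -0.01 for all genes, and over SD 6 were called higher, with a median of 0.85. Thrsp, a lipogenic gene, was at 3.75 FPKM in SD, 54.92 in HFD alone and 104.23 in HFD plus JT003. In corn oil over SD, 6 of the 17 were called higher and 0 lower, with a median of 0.92, or 0.85 with genes at 0 set to their floor, beside 0.04 for all genes.

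Of the 6 genes of electron and heme supply, Por encodes the P450 reductase that feeds electrons to every Cyp3a enzyme. It was at 221.56 FPKM in SD, 87.31 in HFD, 203.32 in HFD plus JT003, 296.50 in corn oil, 200.67 in CCl4 alone and 333.48 in CCl4 plus JT003. Por was lowest in HFD, as Nr1i2 was. It fell in HFD over SD, where the list median was 0.46 beside 0.00 for all genes, with a log2 ratio of -1.47 (-1.52 to -1.42), and rose in HFD plus JT003 over HFD, with 1.20 (1.15 to 1.26). Alas1, the first enzyme of heme synthesis, rose in CCl4 plus JT003 over CCl4, from 185.70 to 506.97 FPKM, with 256.29 in corn oil. Hmox1, which degrades heme, was at 12.09 FPKM in SD, 19.87 in HFD, 16.96 in HFD plus JT003, 4.94 in corn oil, 13.44 in CCl4 alone and 20.83 in CCl4 plus JT003. Cyb5a, an electron carrier and the most abundant of the 6, lay between 662.47 and 1138.74 FPKM.

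Genes that differ between male and female liver were counted because some Cyp3a genes are sex-biased. Of 11 male-biased genes, 10 were called lower in CCl4 over corn oil and 11 in CCl4 plus JT003 over corn oil, with medians of -3.22 and -2.37 beside 0.00 and 0.03 for all genes, and none was at 0 in any library. In corn oil over SD, where Cyp3a11, Cyp3a25 and Cyp3a59 had their highest ratios, 1 of the 11 was called higher and 0 lower, with a median of 0.32 beside 0.04 for all genes. Of the 11 male-biased genes, 1 was called higher and 3 lower in HFD over SD, with a median of -0.34. For HFD plus JT003 over SD 2 were called higher and 3 lower, with a median of -0.82. Their summed FPKM was 26207.55 in SD, 21443.81 in HFD, 16066.56 with HFD plus JT003, 23790.21 in corn oil, 9408.33 in CCl4 and 9965.68 with JT003 added. Elovl3, Hsd3b5, Cyp7b1 and Cyp4a12a were among them, and Elovl3 was at 239.83 FPKM in corn oil, 19.28 in CCl4 alone and 2.71 in CCl4 plus JT003. Mup20, with the highest mean over the 6 libraries, was at 7477.25 FPKM in corn oil, 2453.49 in CCl4 alone and 4535.15 in CCl4 plus JT003. In CCl4 plus JT003 over CCl4, 2 of the 11 were called higher and 1 lower, Elovl3, with a median of 0.29 and 7 of the 11 positive. Of 12 female-biased genes outside Cyp3a, 3 were called higher and 2 lower in CCl4 over corn oil, with a median of 0.04, or 0.00 with genes at 0 set to their floor, beside 0.00 for all genes. In CCl4 plus JT003 over corn oil 5 were called higher and 1 lower, with a median of 1.42 beside 0.03, and over CCl4 4 were called higher and 1 lower, with a median of 0.58, or 0.29 with genes at 0 set to their floor. Their summed FPKM was 39.92 in SD, 32.46 in HFD, 76.95 with HFD plus JT003, 30.44 in corn oil, 53.69 in CCl4 and 75.18 with JT003 added, with Acot3 the most abundant by its mean and 1 or 2 of the genes at 0 in each library. In HFD over SD, 2 were called higher and 3 lower, with a median of 0.35, or 0.14 with genes at 0 set to their floor. Cyp2b9 was at 0.00 FPKM in SD, 23.06 in HFD and 42.70 with JT003, while Acot3 was at 15.94, 3.73 and 26.05. Cyp2a4 was at 0.00 FPKM in corn oil, 27.29 in CCl4 alone and 6.94 in CCl4 plus JT003. The part of these genes in the Cyp3a values was not tested.

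Cyp3a enzymes are known to be most abundant around the central vein, where CCl4 injures hepatocytes. Of 12 pericentral markers, 5 were called lower in CCl4 over corn oil and 0 higher, with a median of -0.80 beside 0.00 for all genes and 5 of the 12 ratios positive. In CCl4 plus JT003 over CCl4, 1 was called higher and 0 lower, with a median of -0.29 and 4 of the 12 positive. Their summed FPKM was 5843.44 in corn oil, 1758.32 in CCl4 alone and 2753.66 in CCl4 plus JT003. Cyp2e1, the most abundant and the bulk of these sums, was at 4420.45, 1102.99 and 2279.79 FPKM there, and Glul at 268.44, 34.22 and 47.03. In the diet model 3 were called higher and 2 lower in HFD over SD, with summed FPKM of 4874.12 in SD, 6352.78 in HFD and 8947.05 with HFD plus JT003. In HFD plus JT003 over SD 4 were called higher and 1 lower, with a median of 0.81. In corn oil over SD 3 were called higher and 0 lower, with a median of 0.35 beside 0.04 for all genes. The part of these markers in the Cyp3a values was not tested. Of 12 periportal markers, 2 were called higher and 2 lower in CCl4 over corn oil, with a median of -0.18, and Ass1, with the highest mean over the 6 libraries, was at 2358.71 and 2439.56 FPKM, with a log2 ratio of scaled counts of -0.19 (-0.20 to -0.17). Of 10 general hepatocyte markers, 1 was called lower and 0 higher, with a median of -0.16, and Alb was at 27511.85 and 36234.77 FPKM. The periportal markers summed to 6038.36 in SD, 3967.16 in HFD, 3705.34 with HFD plus JT003, 7548.59 in corn oil, 6695.29 in CCl4 and 7607.13 with JT003 added FPKM, and the general hepatocyte markers to 49095.86 in SD, 49738.33 in HFD, 54907.14 with HFD plus JT003, 53616.83 in corn oil, 63889.76 in CCl4 and 62705.95 with JT003 added. None of the markers of these 3 lists was at 0 in any library.

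Markers of other cells were counted as well, and their part in the Cyp3a values was not tested. Of all genes, 4.76% were called higher in CCl4 over corn oil and 3.24% lower in corn oil over SD. Of 10 macrophage markers, 9 were called higher in CCl4 over corn oil and 8 lower in corn oil over SD. The medians of these markers were 1.64 and -1.66, beside 0.00 and 0.04 for all genes. Their summed FPKM was 106.40 in SD, 117.37 in HFD, 148.01 with HFD plus JT003, 29.21 in corn oil, 101.18 in CCl4 and 140.37 with JT003 added, with Lyz2 the most abundant and no marker at 0. In CCl4 plus JT003 over CCl4 their median was 0.00 with 5 of the 10 positive, and 1 was called, Marco, at 4.01 FPKM in CCl4 and 32.45 with JT003 added. Of 10 stellate cell markers, 6 were called higher in HFD over SD and 3 in CCl4 over corn oil, with medians of 1.46 and 0.94. With JT003, 4 were called lower in HFD plus JT003 over HFD and 3 in CCl4 plus JT003 over CCl4, none higher, with medians of -0.98 and -0.77, and Col1a1 was at 20.41 FPKM in CCl4 and 7.49 when JT003 was added. Their summed FPKM was 68.83 in SD, 116.56 in HFD, 102.56 with HFD plus JT003, 77.41 in corn oil, 116.31 in CCl4 and 107.99 with JT003 added, with no marker at 0. Dcn, the most abundant, made up much of these sums, at 56.32 FPKM in SD, 77.86 in HFD, 82.78 in HFD plus JT003, 61.43 in corn oil, 46.36 in CCl4 alone and 71.79 in CCl4 plus JT003, so with JT003 it was not lower as Col1a1 was. Of 8 endothelial markers, 3 were called lower in CCl4 over corn oil, with a median of -0.86, and Clec4g, the most abundant, was at 22.43 and 14.02 FPKM. In CCl4 plus JT003 over CCl4 none was called, with a median of 0.67 and 7 of the 8 positive, and Clec4g was at 22.59 FPKM there. The endothelial markers, none at 0, summed to 71.65 in SD, 76.69 in HFD, 90.66 with HFD plus JT003, 44.36 in corn oil, 27.83 in CCl4 and 43.52 with JT003 added FPKM. In corn oil over SD 2 of them were called lower and 0 higher, with a median of -0.73. Of 6 cholangiocyte markers, 4 were called higher in CCl4 over corn oil, with a median of 1.16, Spp1, the most abundant, being at 21.04 and 90.54 FPKM and Cftr at 0 in the 3 diet libraries. The cholangiocyte markers summed to 16.10 in SD, 26.10 in HFD, 16.69 with HFD plus JT003, 26.70 in corn oil, 104.52 in CCl4 and 105.79 with JT003 added FPKM. Of 6 intestinal markers, 4 were in the files and 1 was called lower in CCl4 over corn oil, with Fabp2, which liver also expresses and which had the highest mean of them, at 98.54 and 51.82 FPKM, Cdh17 at 0 in corn oil and CCl4 plus JT003, and Vil1 at 0 in SD. The median of these 4 was 0.90, or 0.33 with genes at 0 set to their floor. The intestinal markers summed to 136.15 in SD, 110.67 in HFD, 119.08 with HFD plus JT003, 134.03 in corn oil, 86.72 in CCl4 and 115.58 with JT003 added FPKM. Of 11 acute phase genes, which report inflammation, 4 were called higher in CCl4 plus JT003 over CCl4 and 3 lower in HFD plus JT003 over HFD, with medians of 0.86 and -0.71 beside 0.00 and -0.01 for all genes, and with Hp, the most abundant, at 2720.33 FPKM in corn oil, 3071.58 in CCl4 alone and 6001.40 in CCl4 plus JT003. The acute phase genes, none at 0, summed to 9044.10 in SD, 7612.87 in HFD, 5266.57 with HFD plus JT003, 6646.15 in corn oil, 7765.50 in CCl4 and 13295.47 with JT003 added FPKM.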

How the data were processed

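Liver RNA of mice, as 6 libraries with 1 per group, was used as quantified by the authors. The submitters' processing notes name HISAT, Bowtie2, RSEM and the build mm9. The deposited expected counts are estimates per gene that need not be whole. The deposited FPKM values are scaled to transcript length and library size by the authors. A gene not listed for a library was taken as 0. Expected counts were rounded to whole numbers, with 0.5 rounded up.

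TMM scaling in edgeR 4.0.16 (R 4.3.3) used each model's 3 libraries, and all 6 for corn oil over SD. Pairs of libraries were compared with the exact binomial test, two-sided and conditional on the summed rounded counts (scipy 1.17.1), with Benjamini-Hochberg adjustment over genes with at least 1 read in the 2 libraries. Log2 ratios carry a prior count of 2. Intervals of 95% are Clopper-Pearson for ratios and exact Poisson for levels, and cover counting error only. DESeq2 1.42.0 gave alternative size factors. The tests were checked on simulated counts that held counting error only. That check does not cover spread between mice, library scaling or reads shared between paralogs. The authors' comparison tables hold fold changes, p-values and per-group expression columns. Of the latter, the pooled CCl4 column was used as an alternative and the other 7 were not used, nor were the fold changes and p-values.

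Named genes were the members, other Cyp3a rows, up to 4 called genes of each list with the largest ratios and at least 100 counts, each list's most abundant gene by mean FPKM, and the 5 genes most correlated with Nr1i2 and with Cyp3a11 among genes with a mean FPKM of at least 1. Vdr, Cftr, Cdh17 and Vil1, at 0 in some libraries, were named after their values were seen. The 14 lists cover PXR partners, PXR targets, electron and heme supply, sex-biased genes, liver zones, cell types and acute phase genes. Members and lists were chosen with earlier results of these data known. Transcript windows came from GENCODE M21, and promoters were aligned with Biopython 1.88.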

Additional observations from a re-analysis of the deposited data

Results flagged for a closer look

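Cyp3a44 had signal in data outside the comparisons. The pooled CCl4 column of the authors held 71 rounded counts of Cyp3a44 beyond those of the CCl4 library, against 0 in corn oil, and passed the same test. Which libraries that column pools was not stated, and reads shared with paralogs apply here as well.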

How the results depend on the processing

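The log2 ratios of the members were set against those under the alternative settings, 664 in all. Settings that change only a threshold, the count minimum or the assumed variation keep the ratio, so its direction could not change there. Of the 664, 590 kept their direction and their side of the call, 18 lost a call, 39 gained one and 17 changed sign. With DESeq2 size factors, TMM over all 6 libraries and a prior count of 0.5, each ratio kept both. The cause was not tested unless the setting itself shows it. As reported, the genes called numbered 914 for HFD over SD, 278 for HFD plus JT003 over HFD, 1008 for HFD plus JT003 over SD, 1237 for CCl4 over corn oil, 767 for CCl4 plus JT003 over CCl4, 858 for CCl4 plus JT003 over corn oil, 923 for Corn oil over SD. With log2 of FPKM plus 0.1 and the fold alone, the members called became 2 for CCl4 over corn oil, 3 for CCl4 plus JT003 over CCl4, 4 for CCl4 plus JT003 over corn oil, and the genes called became 1632 for HFD over SD, 943 for HFD plus JT003 over HFD, 1825 for HFD plus JT003 over SD, 2294 for CCl4 over corn oil, 1550 for CCl4 plus JT003 over CCl4, 2108 for CCl4 plus JT003 over corn oil, 1732 for Corn oil over SD, and the sign changed to give 0.11 for Cyp3a13 in HFD plus JT003 over SD, 0.21 for Cyp3a25 in CCl4 plus JT003 over corn oil. With no threshold on the log2 ratio, the members called became 4 for HFD over SD, 4 for HFD plus JT003 over HFD, 5 for CCl4 over corn oil, 4 for CCl4 plus JT003 over CCl4, 4 for CCl4 plus JT003 over corn oil, and the genes called became 3967 for HFD over SD, 2422 for HFD plus JT003 over HFD, 4544 for HFD plus JT003 over SD, 4492 for CCl4 over corn oil, 4181 for CCl4 plus JT003 over CCl4, 3549 for CCl4 plus JT003 over corn oil, 4888 for Corn oil over SD. With assumed biological coefficient of variation of 0.2, the members called became 0 for HFD over SD, 0 for CCl4 plus JT003 over CCl4, and the genes called became 179 for HFD over SD, 19 for HFD plus JT003 over HFD, 203 for HFD plus JT003 over SD, 346 for CCl4 over corn oil, 165 for CCl4 plus JT003 over CCl4, 138 for CCl4 plus JT003 over corn oil, 105 for Corn oil over SD. With assumed biological coefficient of variation of 0.4, the members called became 0 for HFD over SD, 0 for HFD plus JT003 over SD, 0 for CCl4 over corn oil, 0 for CCl4 plus JT003 over CCl4, 0 for Corn oil over SD, and the genes called became 11 for HFD over SD, 0 for HFD plus JT003 over HFD, 5 for HFD plus JT003 over SD, 59 for CCl4 over corn oil, 0 for CCl4 plus JT003 over CCl4, 24 for CCl4 plus JT003 over corn oil, 6 for Corn oil over SD. With counts summed over Cyp3a11, Cyp3a25 and Cyp3a59, and over Cyp3a16, Cyp3a41a, Cyp3a41b and Cyp3a44, where each gene takes the ratio of its sum, the sign changed to give -0.37 for Cyp3a44 in HFD over SD, 0.67 for Cyp3a25 in CCl4 over corn oil, 2.12 for Cyp3a41a in CCl4 over corn oil, 0.09 for Cyp3a59 in CCl4 plus JT003 over CCl4, -0.86 for Cyp3a41b in CCl4 plus JT003 over CCl4, 0.76 for Cyp3a25 in CCl4 plus JT003 over corn oil, 1.27 for Cyp3a41a in CCl4 plus JT003 over corn oil, 1.27 for Cyp3a16 in CCl4 plus JT003 over corn oil. With these sums 1 call was gained, and the calls of Cyp3a25 and Cyp3a59 were lost in HFD over SD, at 0.54, and in HFD plus JT003 over SD, at 0.99. Cyp3a11 holds most of the first sum and shared 0 windows with Cyp3a25 or Cyp3a59. Those losses therefore do not test reads divided between paralogs. With adjusted p under 0.05, the members called became 3 for CCl4 plus JT003 over CCl4, 1 for CCl4 plus JT003 over corn oil, and the genes called became 460 for HFD plus JT003 over HFD. With total reads as library sizes, the members called became 2 for CCl4 over corn oil, 2 for CCl4 plus JT003 over corn oil, and the sign changed to give 0.11 for Cyp3a13 in HFD plus JT003 over SD, 0.21 for Cyp3a25 in CCl4 plus JT003 over corn oil. With log2 of FPKM plus 1 and the fold alone, the members called became 2 for CCl4 plus JT003 over corn oil, and the genes called became 668 for HFD plus JT003 over SD, 496 for CCl4 plus JT003 over CCl4, 509 for Corn oil over SD, and the sign changed to give 0.10 for Cyp3a13 in HFD plus JT003 over SD, 0.21 for Cyp3a25 in CCl4 plus JT003 over corn oil. With genes with at least 100 counts, the members called became 0 for CCl4 over corn oil, and the genes called became 555 for CCl4 plus JT003 over corn oil. With pooled CCl4 counts, the members called became 2 for CCl4 plus JT003 over CCl4, and the sign changed to give -0.02 for Nr1i2 in CCl4 over corn oil, 0.21 for Cyp3a41a in CCl4 over corn oil, 0.05 for Cyp3a59 in CCl4 plus JT003 over CCl4. With genes with at least 10 counts, the members called became 2 for CCl4 plus JT003 over CCl4. Scaling by total reads moved the share of calls that were higher from 66.4% to 81.9% for CCl4 over corn oil and from 65.2% to 85.7% for CCl4 plus JT003 over corn oil. It moved them from 54.2% to 65.5% for HFD over SD, from 53.4% to 66.6% for HFD plus JT003 over SD and from 40.2% to 29.9% for corn oil over SD. For CCl4 plus JT003 over CCl4 it moved from 43.3% to 51.0%, so most calls were lower as reported and higher with total reads, and for HFD plus JT003 over HFD from 45.7% to 47.3%. Spread between mice is unknown, and the values of Cyp3a44 and Cyp3a41b rest on few counts. No paired analysis was possible because each group has 1 library.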
